A study of Homo sapiens and Mus musculus with 10 samples.

Results

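The genes described here encode serine proteases and other proteins of the primary (azurophil) granules of neutrophils and monocytes. Lysozyme and the ribonucleases named for eosinophils (RNASE2 and RNASE3) were grouped with them. They were chosen by symbol, from a list of 10 names written with earlier results of these data known: MPO, ELANE, PRTN3, CTSG, AZU1, PRSS57, RNASE2, RNASE3, LYZ and LYZ2. Of the 27800 gene symbols in the human table, 9 were members, and of the 24493 in the mouse table, 6 were. LYZ2 is a mouse gene with no row in the human table, and AZU1, RNASE2, RNASE3 and LYZ had no row in the mouse table under those symbols.

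RNA was sequenced from MOLM-13, a human acute myeloid leukaemia line known to carry a KMT2A::MLLT3 fusion, and from ER-Hoxa9, a mouse myeloid progenitor line immortalised by Hoxa9. MOLM-13 was given 4 µM WM-1119 for 4 days (3 libraries) and compared with DMSO (3 libraries), and ER-Hoxa9 was given 2 µM WM-1119 for 4 days (2 libraries) and compared with DMSO (2 libraries). WM-1119 is an inhibitor of KAT6A, a histone acetyltransferase, and the study asked how blocking it alters transcription in leukaemia cells. All ER-Hoxa9 cells, those in DMSO included, were grown with β-estradiol and with medium containing stem cell factor. The genotype of the ER-Hoxa9 cells at the lysozyme locus is not given in the sources used here. The labels do not state that a group's libraries are independent cultures. The p-values therefore describe the scatter of these particular libraries, and that scatter could be technical.

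Primary granules are the first granules made in the neutrophil lineage, at the promyelocyte stage, and their genes are silenced again as cells mature. Granule proteases are made as inactive zymogens, are activated by the dipeptidyl peptidase CTSC, and are packed with the proteoglycan serglycin. Lysozyme is found in primary and in later granules, and monocytes and macrophages make it too. Transcription of these genes is known to depend on PU.1, C/EBP family factors and MYB.

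Levels are TPM, the part of a library's transcripts that a gene holds once transcript length is taken into account, scaled so that each library sums to 1000000. They keep no read depth, so the counting error of a value is unknown. Differences were tested with limma on log2(TPM + 1), with Benjamini-Hochberg adjustment over every gene that averaged 1 TPM or more, and a gene was called at an adjusted p under 0.05. The 9 human members were tested among 12436 genes and 5 of the 6 mouse members among 11362.

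The human members fall into a few chromosomal groups on GRCh38 (GENCODE release 29). AZU1 (chr19:825097-832018), PRTN3 (chr19:840960-848175) and ELANE (chr19:851014-856247) stand in a row on the plus strand, 8941 and 2838 bases apart, followed after 3395 bases by CFD. PRSS57 (chr19:685546-695498) lies on the minus strand of the same chromosome. RNASE3 (chr14:20891399-20892348) and RNASE2 (chr14:20955452-20956436) are 63103 bases apart, and CTSG (chr14:24573522-24576260) lies further along the same chromosome. MPO (chr17:58269856-58280935, minus strand, 12 exons) is 1337 bases from LPO, the gene of lactoperoxidase, and LYZ is at chr12:69348341-69354234.

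RefSeq (GRCh38.p14) gave an upstream sequence for 6 of the 10 members. The 250 bases before the RefSeq start are shown for the neighbouring protease genes PRTN3 (chr19:840749-840998, plus strand) and AZU1 (chr19:827587-827836, plus strand), and for the paired ribonuclease genes RNASE2 (chr14:20955237-20955486, plus strand) and RNASE3 (chr14:20891135-20891384, plus strand), whose levels stood in nearly constant proportion in the MOLM-13 libraries. The AZU1 window lies inside the GENCODE gene, because the RefSeq start is further downstream. Capitals mark matches, on either strand, to 4 short motifs, with 0 overlaps between matches. PU.1 and other ETS factors were searched as GAGGAAG. The letters used for the C/EBP family were TTGNGCAA. MYB was searched as AACNGNC. For the core promoter element bound by TBP they were TATAAG.
PRTN3: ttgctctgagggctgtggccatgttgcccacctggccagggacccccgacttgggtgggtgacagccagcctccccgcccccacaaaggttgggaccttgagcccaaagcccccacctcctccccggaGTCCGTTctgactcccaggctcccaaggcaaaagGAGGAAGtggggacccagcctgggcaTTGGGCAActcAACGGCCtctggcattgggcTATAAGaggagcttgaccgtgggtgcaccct
AZU1: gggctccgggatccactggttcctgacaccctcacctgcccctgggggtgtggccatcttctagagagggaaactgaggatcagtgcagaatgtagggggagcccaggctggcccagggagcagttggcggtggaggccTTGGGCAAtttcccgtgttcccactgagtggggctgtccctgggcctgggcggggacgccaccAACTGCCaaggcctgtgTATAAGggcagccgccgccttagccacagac
RNASE2: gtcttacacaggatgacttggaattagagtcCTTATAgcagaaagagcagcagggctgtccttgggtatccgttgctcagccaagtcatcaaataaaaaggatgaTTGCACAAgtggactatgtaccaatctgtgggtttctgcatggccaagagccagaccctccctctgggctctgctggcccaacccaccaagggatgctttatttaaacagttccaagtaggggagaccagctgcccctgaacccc
RNASE3: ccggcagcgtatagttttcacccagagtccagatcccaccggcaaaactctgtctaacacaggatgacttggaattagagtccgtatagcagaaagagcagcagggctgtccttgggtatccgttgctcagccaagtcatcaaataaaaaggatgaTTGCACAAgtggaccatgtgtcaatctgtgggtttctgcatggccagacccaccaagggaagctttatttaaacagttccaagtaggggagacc

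PRTN3 held all 4 motifs, with GAGGAAG beginning 88 bases before the start (-88), TTGNGCAA at -62, AACNGNC at -51 and, on the minus strand, at -122, and TATAAG at -31. AZU1 held TTGNGCAA at -111, AACNGNC at -48 and TATAAG at -31. RNASE2 and RNASE3 each held TTGNGCAA on the minus strand, at -145 and -94, and RNASE2 also held TATAAG on the minus strand at -219. Of the sequences not printed, CTSG held GAGGAAG at -16 and, on the minus strand, at -47, with AACNGNC at -151 on the minus strand, and PRSS57 held AACNGNC at -46 on the minus strand. Among all 35116 promoters of the RefSeq table, the same windows held GAGGAAG in 11.25%, TTGNGCAA in 2.27%, AACNGNC in 26.9% and TATAAG in 5.03%. The motifs were chosen with these sequences already seen, and a match describes the letters, not a bound site. The RNASE2 and RNASE3 windows aligned with 192 identical bases, 7 mismatches and 34 gap positions, or 82.4% identity, with a longest identical run of 86 bases. Their transcripts also shared sequence, since 89 of the 725 stretches of 31 bases in RNASE2 occur in RNASE3, so some reads of the pair could be assigned to either gene.

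The members, LYZ included, made up 1.80%, 1.36% and 1.21% of all TPM in WM-1119 replicates 1, 2 and 3 of MOLM-13. In DMSO replicates 1, 2 and 3 they made up 1.59%, 1.05% and 0.845%. Each WM-1119 library held more than the DMSO library of the same number, but the groups overlapped. PRTN3 alone gave 34.8% to 47.1% of that sum. Without LYZ the shares were 1.47%, 1.07% and 1.00% in WM-1119 replicates 1, 2 and 3. In DMSO replicates 1, 2 and 3 they were then 1.39%, 0.906% and 0.784%. In ER-Hoxa9 the share was 0.535% and 0.489% in WM-1119 against 0.298% and 0.458% in DMSO, and the groups did not overlap. Single genes had both WM-1119 libraries above both DMSO libraries in 40.3% of all tested genes of that line. There Ctsg gave 51.5% to 79.7% of the sum, the highest part being in DMSO replicate 1.

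**Figure D1:**
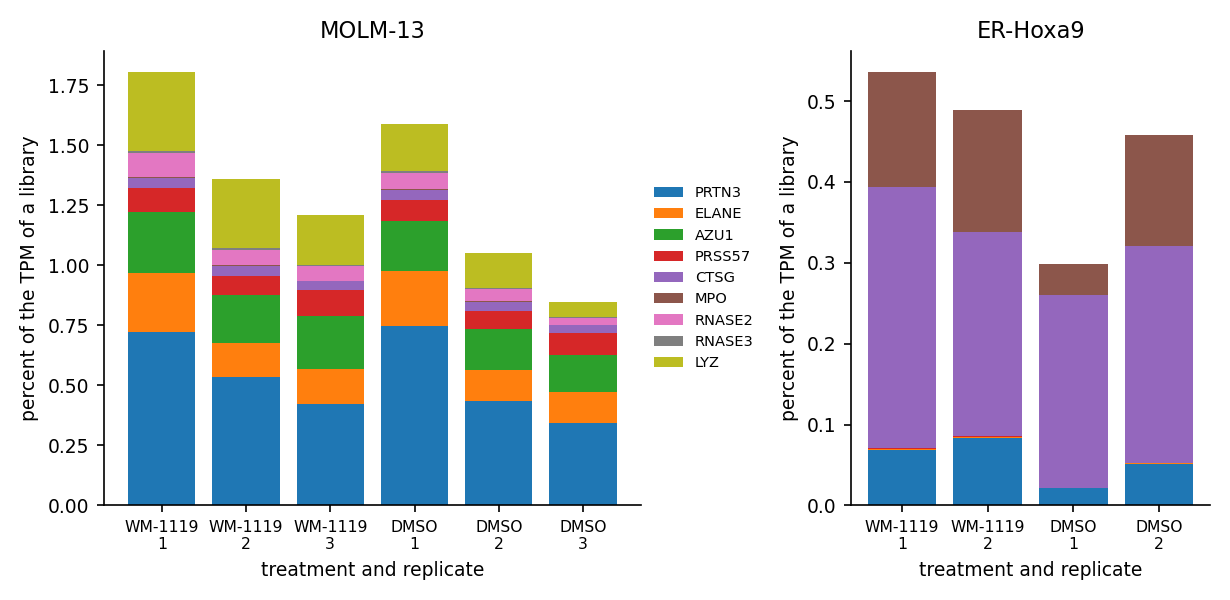
Percent of the TPM of each library (vertical axis) given by each member (stacked colours), per library with WM-1119 left of DMSO, in MOLM-13 (left) and ER-Hoxa9 (right). The MOLM-13 libraries lie between 0.845% and 1.80% and the ER-Hoxa9 libraries between 0.298% and 0.535%, with PRTN3 the main part of the first and Ctsg of the second.

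Levels differed widely between the genes. In MOLM-13 under WM-1119 the order of mean TPM was PRTN3, LYZ, AZU1, ELANE, PRSS57, RNASE2, CTSG, RNASE3 and MPO. Under DMSO LYZ came after ELANE, and the rest kept that order. PRTN3 was above every other member in every library of both groups, at place 19 among all symbols by mean TPM in WM-1119 and place 26 in DMSO. In WM-1119 the ranges of neighbours in this order overlapped for LYZ and AZU1, AZU1 and ELANE, PRSS57 and RNASE2, and RNASE3 and MPO. In DMSO they overlapped for AZU1 and ELANE, ELANE and LYZ, LYZ and PRSS57, RNASE2 and CTSG, and RNASE3 and MPO. MPO, the granule peroxidase that turns hydrogen peroxide and chloride into hypochlorous acid, was the lowest member, at place 2835 in WM-1119 and 3443 in DMSO.

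In MOLM-13, 0 of the 9 members were called by limma, against a background of 0.00804% of all tested genes (1 of 12436). LYZ had an unadjusted p under 0.05, 1 of 9 members against 3.05% of all genes in either direction. Every member had a positive log2 difference, as did 61.5% of all tested genes (47.7% with scaling by the median of ratios, where all 9 members were still positive), and the median was 0.34 over the members and 0.05 over all genes. Same-numbered libraries deviated together in this line, so the same fit was also made with the replicate number as a block. With that block 0 of 9 members were called, as were 0 of all 12436 tested genes. At an unadjusted p under 0.05, 6 of 9 (LYZ, MPO, RNASE3, AZU1, RNASE2 and PRSS57) were higher, against 13.2% of all genes. Scaling by the median of ratios together with the block, an alternative added after the values were seen, left 5 of 9 (without PRSS57) against 8.82% of all genes. The block without the replicate 3 pair left 4 of 9 (LYZ, MPO, RNASE2 and RNASE3), against 5.79% of all genes. Of the 9, 8 were higher in WM-1119 in all 3 same-numbered pairs, as were 28.6% of all genes. LYZ alone (1 of 9) had all WM-1119 libraries above all DMSO libraries, against 4.54% of all genes.

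**Figure D2:**
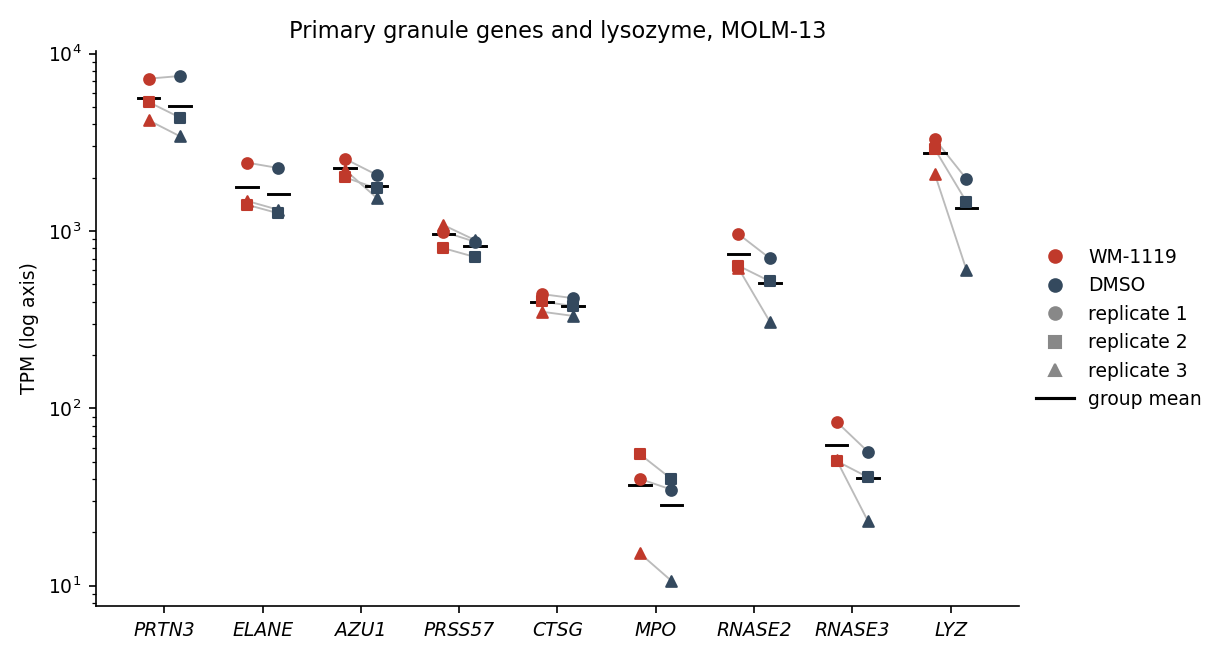
TPM (log axis) of each human gene in the MOLM-13 libraries, WM-1119 in red on the left of each pair and DMSO in dark blue on the right, with marker shapes for replicates, grey lines joining same-numbered libraries and black bars for group means. LYZ is the gene whose groups do not overlap, and PRTN3 in replicate 1 is the line that runs the other way.

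The serine proteases were the most abundant group. PRTN3, which encodes proteinase 3, had 7236, 5342 and 4215 TPM in WM-1119 libraries, against 7490.3, 4364 and 3422 TPM in DMSO libraries. Replicate 1 was the highest library of both groups, the groups overlapped almost entirely, and the WM-1119 library of that number was at 0.966 times its DMSO library. The log2 difference was 0.18 ± 0.32 (SE, n = 3 per group, limma adjusted p = 1.00), and 0.18 ± 0.10 with the replicate block (adjusted p = 0.398). It was -0.07 without DMSO replicate 3, -0.02 without WM-1119 replicate 1 and 0.50 without DMSO replicate 1.

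ELANE, the gene of neutrophil elastase, had 2433, 1408 and 1480 TPM in WM-1119 libraries, against 2268, 1259 and 1318 TPM in DMSO libraries. Replicate 1 was again the high library of both groups, and within each pair the WM-1119 library was higher by 7.29%, 11.8% and 12.3%. On the log2 scale it differed by 0.14 ± 0.30, or 0.14 ± 0.06 with the block (limma adjusted p = 0.325). Leaving out single libraries gave -0.11 (without WM-1119 replicate 1) to 0.41 (without DMSO replicate 1). With all libraries and scaling by the median of ratios the ELANE difference was 0.07. ELANE stood at 26.4% to 35.1% of PRTN3 in WM-1119 libraries and at 28.9% to 38.5% in DMSO libraries, ranges that overlap.

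AZU1 encodes azurocidin, a protease homologue that has lost its catalytic activity and acts as an antimicrobial and chemotactic protein. It had 2552, 2006 and 2210 TPM in WM-1119 libraries, against 2076, 1743 and 1540 TPM in DMSO libraries. DMSO replicate 1 was above WM-1119 replicate 2, so the groups overlapped, while each WM-1119 library was above the DMSO library of its number. AZU1 differed by 0.34 ± 0.18 (log2), with a limma adjusted p of 1.00, and of 0.191 with the replicate block.

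PRSS57 encodes neutrophil serine protease 4, which cleaves after arginine. It had 992, 801 and 1081 TPM in WM-1119 libraries, against 871, 714 and 890.2 TPM in DMSO libraries, and the groups overlapped. Its log2 difference was 0.21 ± 0.18, or 0.21 ± 0.07 with the block (limma adjusted p = 0.226). It was 0.11 without DMSO replicate 2 and 0.33 without WM-1119 replicate 2. Unlike the other proteases, its highest value in either group was in replicate 3.

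CTSG encodes cathepsin G, a protease with chymotrypsin-like activity. It had 441, 401 and 351 TPM in WM-1119 libraries, against 419, 378 and 332 TPM in DMSO libraries. The groups overlapped, and WM-1119 libraries were above their same-numbered DMSO libraries by 5.44%, 6.06% and 5.62%. A log2 difference of 0.08 ± 0.18, the smallest of the 9 members, had a 95% interval from -0.34 to 0.50, and from -0.08 to 0.24 with the replicate block (limma adjusted p = 0.516). It was -0.0063 without DMSO replicate 3 and 0.17 without WM-1119 replicate 3.

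MPO had 40.0, 55.1 and 15.2 TPM in WM-1119 libraries, against 34.8, 40.0 and 10.6 TPM in DMSO libraries. Replicate 3 was low in both groups, so the groups overlapped. MPO differed by 0.37 ± 0.60 (log2) without the block and by 0.37 ± 0.09 with it, where the adjusted p was 0.173 (limma). It was -0.20 without DMSO replicate 3 and 0.90 without WM-1119 replicate 3. MPO shares 0.699% of its stretches of 31 bases with other genes, all of them with EPX, the eosinophil peroxidase gene on the same chromosome.

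The ribonuclease genes came next in size of difference. RNASE2, which encodes the eosinophil-derived neurotoxin, had 963, 638 and 619 TPM in WM-1119 libraries, against 703, 521 and 309 TPM in DMSO libraries. RNASE3, which encodes the eosinophil cationic protein, had 84.0, 50.5 and 51.1 TPM in WM-1119 libraries, against 56.9, 40.9 and 23.1 TPM in DMSO libraries. For both genes DMSO replicate 1 was above WM-1119 replicates 2 and 3, so the groups overlapped, and DMSO replicate 3 was the lowest library.

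Within pairs, RNASE2 in WM-1119 was 1.37, 1.22 and 2.00 times its DMSO level, and RNASE3 was 1.48, 1.24 and 2.22 times its DMSO level. The log2 differences were 0.58 ± 0.33 for RNASE2 and 0.66 ± 0.36 for RNASE3. Their limma adjusted p was 1.00, and with the block 0.191 for RNASE2 and 0.187 for RNASE3. Without DMSO replicate 3 the differences were 0.26 for RNASE2 and 0.31 for RNASE3, and without DMSO replicate 1 they were 0.85 for RNASE2 and 0.94 for RNASE3. RNASE3 stood at 7.92% to 8.72% of RNASE2 in WM-1119 libraries and at 7.47% to 8.10% in DMSO libraries, so the proportion of the pair varied little over the 6 libraries. Both proteins are named for eosinophils, whose other markers are given further on.

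LYZ encodes lysozyme, which breaks bacterial cell walls, and showed the widest difference of the human members. It had 3292, 2894 and 2090 TPM in WM-1119 libraries, against 1969, 1465 and 607 TPM in DMSO libraries. The lowest WM-1119 library was above the highest DMSO library, and replicate 3 was the low one of both groups. Within pairs, WM-1119 libraries were at 1.67, 1.97 and 3.45 times the DMSO level. The log2 difference was 1.17 ± 0.42 (95% interval 0.17 to 2.16, limma unadjusted p = 0.0271), higher than that of 99.4% of tested genes. It did not pass the adjustment over all genes (adjusted p = 1.00, and 0.155 with the replicate block).

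DMSO replicate 3 set much of the size of the LYZ difference, which was 0.67 without that library and 1.52 without DMSO replicate 1. With the block and without the replicate 3 pair it was 0.86 ± 0.11 (limma adjusted p = 0.404). Symbols of ribosomal proteins took 37.6% of the TPM of DMSO replicate 3 and 31.9% of WM-1119 replicate 3, against 24.1% to 26.8% in the other MOLM-13 libraries. The part of that share in the LYZ and RNASE values was not tested. LYZ shared 14.3% of its stretches of 31 bases with other genes.

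**Figure D3:**
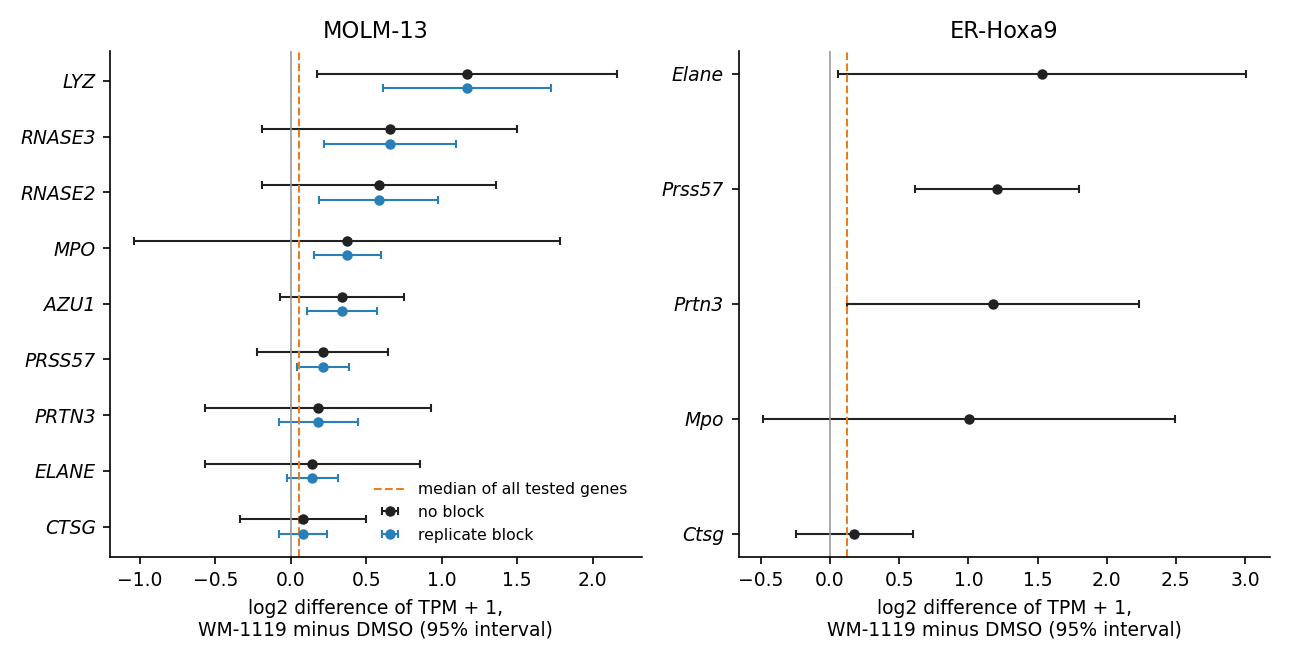
Log2 difference of TPM + 1, WM-1119 minus DMSO, with 95% intervals from limma (horizontal axis) for each gene in MOLM-13 (left, without and with the replicate block) and ER-Hoxa9 (right, without a block). Orange dashed lines mark the median of all tested genes, at 0.05 and 0.12. LYZ at 1.17 and Elane at 1.53 are the furthest right, and CTSG is nearest to the median in both lines.

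Across the 6 MOLM-13 libraries the 36 pairs of members had Pearson correlations of log2(TPM + 1) from -0.50 (MPO and PRSS57) to 0.999 (RNASE2 and RNASE3), with a median of 0.74. CTSG and PRTN3 reached 0.95, and PRTN3 and its neighbour ELANE 0.90. These libraries share a line and come in same-numbered pairs that deviate together. Among the 7136 genes that averaged 10 TPM or more, those closest to the mean profile of the members were RASSF2 (r = 0.998), SREK1IP1 (r = 0.997) and SRGN (r = 0.996), over 6 libraries. RASSF2 had 106, 83.9 and 73.4 TPM in WM-1119 libraries, against 88.4, 72.6 and 51.6 TPM in DMSO libraries, and SRGN had 5892, 4508 and 4009 TPM in WM-1119 libraries, against 4907, 3551 and 2532 TPM in DMSO libraries.

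In ER-Hoxa9, 0 of the 5 tested members were called by limma, against 0.0352% of all tested genes (4 of 11362). Prss57, Prtn3 and Elane had an unadjusted p under 0.05, 3 of 5 against 12.8% of all genes in either direction. With scaling by the median of ratios 1 of 5 (Prss57) had one, against 10.1% of all genes. Mpo, Elane, Prtn3 and Prss57 (4 of 5) had both WM-1119 libraries above both DMSO libraries, as did 40.3% of all genes. The median log2 difference was 1.18 over the members and 0.12 over all genes, and all 5 were positive, as were 71.9% of all genes (49.4% with scaling by the median of ratios, where all 5 were still positive). The median of all genes moved to -0.00 with scaling by the median of ratios, so differences are also given relative to it.

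**Figure D4:**
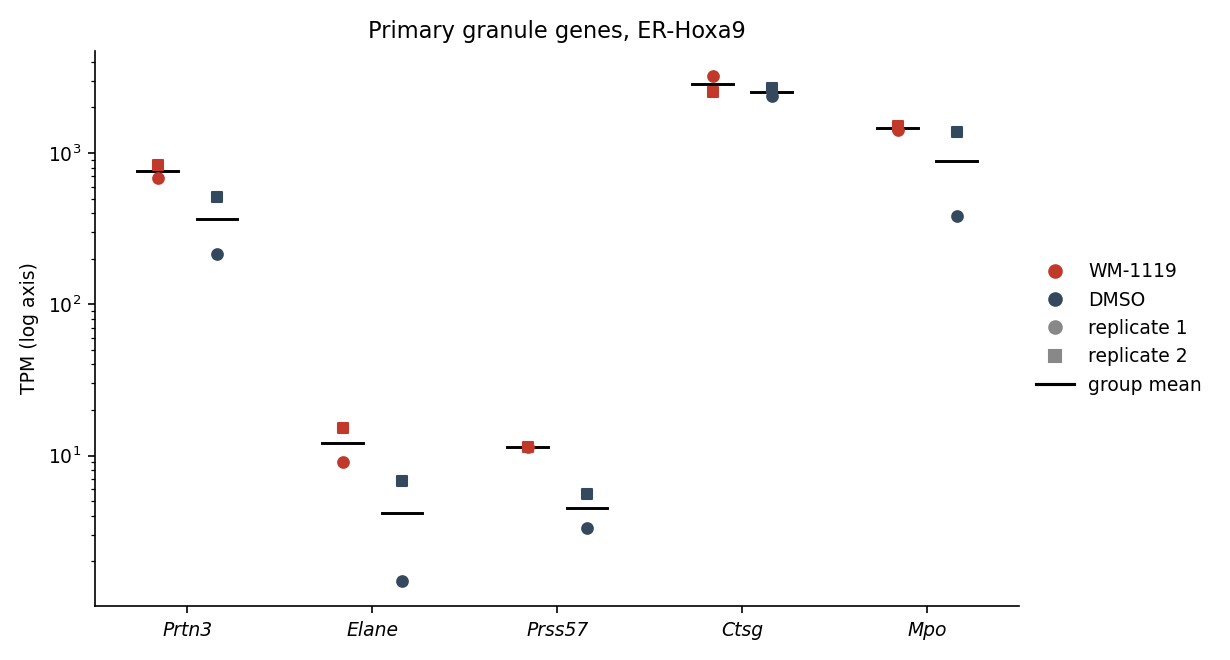
TPM (log axis) of each mouse gene in the ER-Hoxa9 libraries, WM-1119 in red left of DMSO in dark blue, with marker shapes for replicates and black bars for group means. For Mpo, Prtn3 and Elane the circle of DMSO replicate 1 stands well below the other libraries, and for Ctsg the groups overlap.

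Prtn3 had 685 and 832 TPM in WM-1119 libraries, against 215 and 514 TPM in DMSO libraries. Both WM-1119 libraries were above both DMSO libraries, and DMSO replicate 1 was the lowest. The log2 difference was 1.18 ± 0.41 (SE, n = 2 per group, limma adjusted p = 0.371), or 1.06 above the median of all genes.

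Elane had 9.02 and 15.2 TPM in WM-1119 libraries, against 1.48 and 6.84 TPM in DMSO libraries. The groups did not overlap, and the log2 difference of 1.53 ± 0.58 was the largest of the mouse members (limma adjusted p = 0.381). It was a minor transcript here, at 1.32% to 1.83% of Prtn3 in WM-1119 libraries and 0.688% to 1.33% in DMSO libraries. By mean TPM it stood at place 7103 in WM-1119 and 9339 in DMSO, while ELANE in MOLM-13 stood at place 88 in WM-1119 and 91 in DMSO.

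Prss57 had 11.4 and 11.3 TPM in WM-1119 libraries, against 3.33 and 5.61 TPM in DMSO libraries. The WM-1119 libraries were nearly equal and both above the DMSO libraries. The log2 difference was 1.21 ± 0.23 (95% interval 0.62 to 1.80, limma unadjusted p = 0.00321, adjusted p = 0.300), or 1.09 above the median of all genes. It was 0.90 without DMSO replicate 1 and 1.51 without DMSO replicate 2.

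Mpo had 1419 and 1512 TPM in WM-1119 libraries, against 385 and 1379.6 TPM in DMSO libraries. DMSO replicate 1 was low, and DMSO replicate 2 lay just under the WM-1119 libraries. The log2 difference of 1.01 ± 0.58 (limma adjusted p = 0.511) was 0.09 without DMSO replicate 1 and 1.92 without DMSO replicate 2. With 2 DMSO libraries, these values necessarily lie equally far on either side of the full difference. They show its spread, and cannot tell which library set its size. By mean TPM, Mpo stood at place 99 among all mouse symbols in WM-1119 and 135 in DMSO.

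Ctsg was the most abundant mouse member, with 3229.8 and 2520.5 TPM in WM-1119 libraries, against 2379 and 2679 TPM in DMSO libraries. The groups overlapped, and the log2 difference was 0.18 ± 0.17 (limma adjusted p = 0.669), close to the median of all genes. Its 95% interval ran from -0.25 to 0.60.

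Lyz2, the lysozyme gene of mouse macrophages and granulocytes, was listed at 0 in all 4 libraries, so it was not tested and no difference is given. Lyz1 was listed at 0 in 3 of the libraries and at 0.179 TPM in DMSO replicate 2. Of 9 mouse relatives of the human lysozyme and ribonuclease genes, 8 were listed at 0 in every library. No counterpart of the LYZ, RNASE2 or RNASE3 values of MOLM-13 can therefore be given for ER-Hoxa9.

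DMSO replicate 1 of ER-Hoxa9 held symbols of ribosomal proteins at 30.7% of its TPM, against 25.1% to 27.0% in the other 3 libraries. The part of this in the low Mpo, Prtn3 and Elane values of that library was not tested. Without DMSO replicate 1, Prtn3 differed by 0.55 and Elane by 0.70 on the log2 scale, and without DMSO replicate 2 by 1.80 and 2.36.

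The difference between the lines was tested for the 5 genes measured in both, as the WM-1119 effect in MOLM-13 minus that in ER-Hoxa9, among 8726 genes. The doses differed, so line and dose cannot be told apart. With limma 0 of 5 were called, against 0.0229% of all genes, and 1 of 5 (PRSS57) had an unadjusted p under 0.05, against 2.12% of all genes. PRSS57 differed by -0.997 ± 0.31 on the log2 scale (adjusted p = 1.00, and 0.117 with the replicate block, for which pairing was not established in ER-Hoxa9). ELANE differed by -1.39 ± 0.65, PRTN3 by -0.998 ± 0.55, MPO by -0.63 ± 0.93 and CTSG by -0.10 ± 0.26. The 95% intervals of ELANE (-2.81 to 0.04), PRTN3 (-2.22 to 0.22), MPO (-2.69 to 1.43) and CTSG (-0.66 to 0.47) included 0. With the replicate block 0 of 5 were called, against 3 of all 8726 genes. An unadjusted p under 0.05 was found for 3 of 5, all negative. Of all genes 14.5% had one, 939 negative and 327 positive. Blocked 95% intervals were -1.96 to -0.81 for ELANE (limma adjusted p = 0.117), -1.61 to -0.38 for PRTN3 (limma adjusted p = 0.180) and -1.41 to -0.58 for PRSS57, which lie below 0, and -1.62 to 0.36 for MPO and -0.46 to 0.27 for CTSG. Without ER-Hoxa9 DMSO replicate 1 the difference was -0.56 for ELANE, -0.37 for PRTN3, -0.69 for PRSS57 (limma unadjusted p = 0.061) and 0.29 for MPO, the last of the opposite sign. Without ER-Hoxa9 DMSO replicate 2 it was -2.22 for ELANE, -1.62 for PRTN3, -1.30 for PRSS57 and -1.55 for MPO. That of CTSG was 0.08 without ER-Hoxa9 WM-1119 replicate 1 and -0.28 without ER-Hoxa9 WM-1119 replicate 2.

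Other genes of the granule pathway were taken from lists, with the members left out. In MOLM-13, 0 genes of any list were called by limma, without or with the replicate block. At an unadjusted p under 0.05 without the block, 3.05% of all genes passed in either direction. The lists held 1 of 11 transcription factors (CEBPE) and 2 of 6 inhibitors (SLPI and CST3), all higher. Of 8 monocyte markers, 1 (CCR2) was lower. With the block, where 13.2% of all genes were higher and 4.91% lower at that threshold, 3 of 6 other primary granule genes, 4 of 14 processing genes, 3 of 11 transcription factors, 3 of 6 inhibitors, 1 of 4 later granule genes and 4 of 8 monocyte markers were higher, and 1 monocyte marker (CCR2) was lower. Of 11 genes for MPO folding and haem synthesis, 3 were then higher and 1 lower. All 6 tested genes of the list of other primary granule genes (BPI, CD63, CD68, CFD, MS4A3 and SERPINB10) had a positive difference (median 0.36). Of all tested genes 61.5% had one. The list was made by symbol, and not every gene on it need encode a granule protein. CFD, the complement factor D gene next to ELANE, had 899 ± 234 TPM in WM-1119 and 784 ± 172 TPM in DMSO (SD, n = 3 each). Of 14 genes for protease processing and storage, 11 were positive and 3 negative (median 0.12). SRGN, the serglycin gene, had 4803 ± 976 TPM in WM-1119 and 3663 ± 1191 TPM in DMSO, with overlapping groups, and was higher in all 3 pairs. Of 11 genes for MPO folding and haem synthesis, 9 were positive (median 0.13), with the chaperone gene CALR at 940 ± 386 TPM in WM-1119 and 808 ± 471 TPM in DMSO.

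Of the 11 transcription factor genes tested in MOLM-13, 10 had a positive difference (median 0.11), as did 61.5% of all tested genes. CEBPA, the most abundant, had 346 ± 47.2 TPM in WM-1119 and 336 ± 44.7 TPM in DMSO, and CEBPE, a C/EBP factor of later granulocytes, had 3.15 ± 0.27 TPM in WM-1119 and 2.04 ± 0.44 TPM in DMSO. The list of protease inhibitors had 5 of 6 tested genes positive, with a median of 0.45. CST3, the cystatin C gene, had 1079, 802 and 990 TPM in WM-1119 libraries, against 737, 501 and 394 TPM in DMSO libraries, which do not overlap (log2 0.85 ± 0.26, limma adjusted p = 1.00). SLPI, which encodes an inhibitor of elastase and cathepsin G, had 15.3, 14.3 and 7.23 TPM in WM-1119 libraries, against 0.897, 1.05 and 1.65 TPM in DMSO libraries. All WM-1119 libraries were above all DMSO libraries, and the log2 difference of 2.55 ± 0.30 had an adjusted p of 0.176 (limma). SLPI and CEBPE were singled out after their values were seen.

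Genes of later granules were mostly low in MOLM-13, where 9 of 15 with a row, LTF, LCN2 and MMP8 among them, were under 1 TPM in every library. The most abundant was CHI3L1, at 74.0 ± 7.42 TPM in WM-1119 and 85.5 ± 13.7 TPM in DMSO. Of 8 tested monocyte and macrophage markers, 7 had a positive difference (median 0.41), as did 61.5% of all tested genes. C1QA, C1QB, CD163, MRC1 and FCN1 were under 1 TPM in every library. The summed level of the 17 monocyte markers with a row was 107 to 152 TPM in WM-1119 and 86.3 to 143 TPM in DMSO. CCR2, the chemokine receptor of monocytes, had 22.9 ± 2.72 TPM in WM-1119 and 31.3 ± 2.95 TPM in DMSO. F13A1, a coagulation factor gene of monocytes, had 39.7, 29.9 and 14.3 TPM in WM-1119 libraries, against 23.6, 17.1 and 7.54 TPM in DMSO libraries, higher in every pair with overlapping groups (log2 0.78 ± 0.07 with the replicate block, limma adjusted p = 0.0956). VCAN, CX3CR1 and ITGAM were the other markers that were higher at an unadjusted p under 0.05 with the block, and all 4 were named after their values were seen. Monocytes also make lysozyme, and the part of these markers in the LYZ difference was not tested. In libraries of a whole culture, fewer cells of a type and less RNA per cell cannot be told apart.

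Eosinophil markers with a row summed to 161 to 277 TPM in WM-1119 and 68.5 to 302 TPM in DMSO, almost all of it PRG2, at 191 ± 64.1 TPM in WM-1119 and 190.0 ± 113 TPM in DMSO. CLC, IL5RA, ALOX15 and SIGLEC8 were under 1 TPM in every library. Of 10 myeloid progenitor markers, 8 were tested and 7 had a positive difference (median 0.19), as did 61.5% of all tested genes. CD34 was listed at 0 and KIT was under 1 TPM in every library. Globin genes were present in 1 pair only: the erythroid and megakaryocyte list summed to 298 TPM in WM-1119 replicate 3 and 209 TPM in DMSO replicate 3, and to 1.19 TPM or less in the other libraries. Mast cell and basophil markers summed to 17.8 to 34.0 TPM in WM-1119 and 20.7 to 49.5 TPM in DMSO, and lymphoid markers, led by NKG7, to 130.3 to 149.9 TPM in WM-1119 and 96.5 to 165 TPM in DMSO. Stromal collagen genes were under 1 TPM, and the stromal list was carried by VIM, at 727 ± 225 TPM in WM-1119 and 549 ± 344 TPM in DMSO. With the block and at an unadjusted p under 0.05, 1 of 2 stromal and 3 of 8 progenitor markers were higher, against 13.2% of all genes. Of 2 mast cell or basophil, 3 lymphoid and 8 progenitor markers, 1 each was lower, against 4.91% of all genes.

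**Figure D5:**
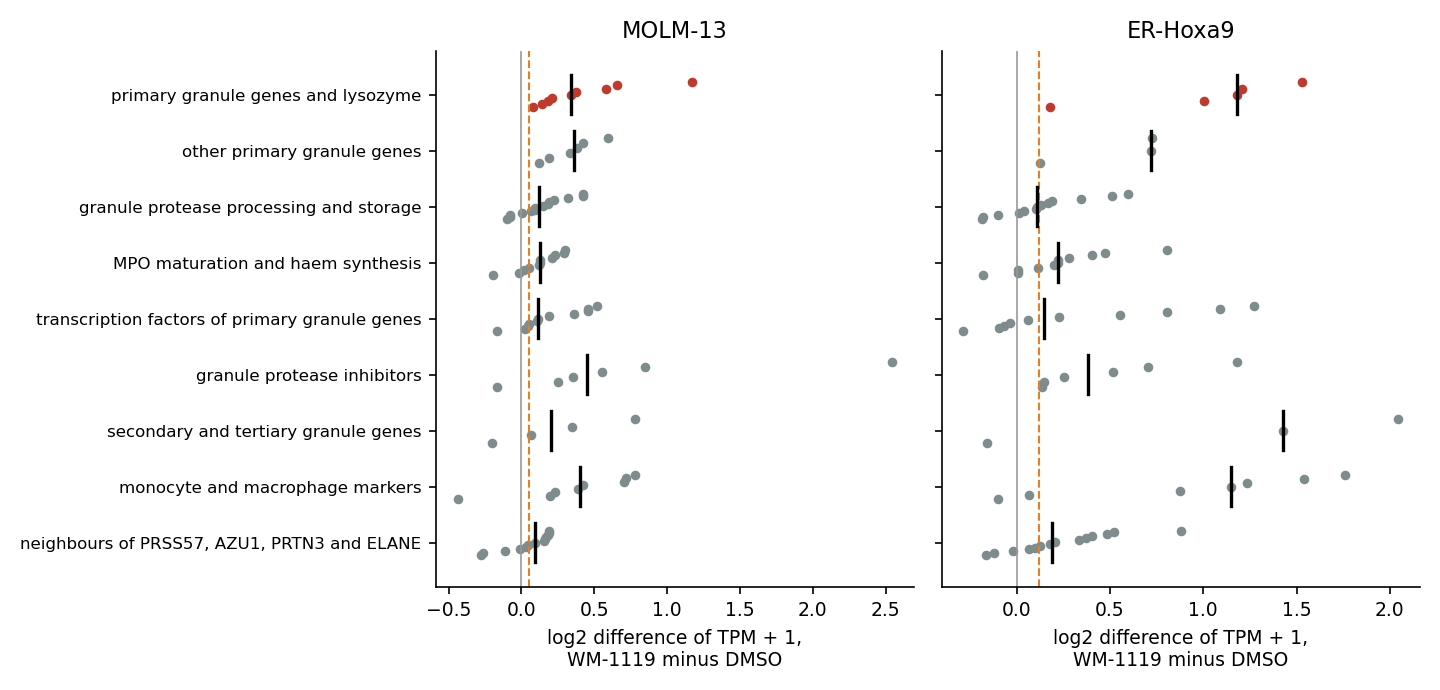
Log2 difference of TPM + 1, WM-1119 minus DMSO (horizontal axis), for each tested gene of the lists named on the left, in MOLM-13 and ER-Hoxa9, with black bars for list medians and orange dashed lines for the median of all tested genes. The members are in red, with medians of 0.34 and 1.18, and the monocyte and macrophage markers have medians of 0.41 and 1.15.

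In ER-Hoxa9, 0 genes of these lists were called by limma either. At an unadjusted p under 0.05, 11.6% of all genes were higher, or 6.45% with scaling by the median of ratios. The lists held, all of them higher, 1 of 3 other primary granule genes, 2 of 13 processing genes, 2 of 11 genes of MPO folding and haem synthesis, 3 of 10 transcription factors, 1 of 6 inhibitors, 2 of 3 later granule genes and 5 of 7 monocyte markers. Of 7 tested monocyte and macrophage markers, 6 had a positive difference, with a median of 1.15, and 71.9% of all tested genes had one. F13a1, a coagulation factor gene of monocytes and the most abundant of them, had 163 and 203 TPM in WM-1119 libraries, against 25.4 and 109.7 TPM in DMSO libraries. DMSO replicate 1 was the low library here too. The list summed to 275 and 310.1 TPM in WM-1119 and to 106 and 227 TPM in DMSO, and C1qa, C1qb, Mrc1 and Msr1 were under 1 TPM in every library. The part of these markers in the Mpo, Prtn3 and Elane differences was not tested.

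Later granule genes were mixed in ER-Hoxa9. Lcn2, the most abundant, had 176 ± 119.7 TPM in WM-1119 and 177 ± 55.6 TPM in DMSO (SD, n = 2 each). Pglyrp1, which encodes a peptidoglycan recognition protein, had 87.2 and 98.3 TPM in WM-1119 libraries, against 21.8 and 52.0 TPM in DMSO libraries, and Hp, the haptoglobin gene, had 10.5 and 9.78 TPM in WM-1119 libraries, against 0.837 and 2.97 TPM in DMSO libraries. Both had groups that did not overlap, and adjusted p of 0.312 and 0.297 (limma). Of all tested ER-Hoxa9 genes, 40.3% had both WM-1119 libraries above both DMSO libraries. Ltf, Camp and Ngp were under 1 TPM in every library.

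Among the transcription factor genes of ER-Hoxa9, 6 of 10 had a positive difference and 4 a negative one (median 0.15). Myb, the most abundant, had 407 ± 7.08 TPM in WM-1119 and 434 ± 10.1 TPM in DMSO. Cebpe had 66.0 and 44.9 TPM in WM-1119 libraries, against 18.9 and 33.1 TPM in DMSO libraries (log2 1.09 ± 0.31, limma adjusted p = 0.313), and Spi1, the PU.1 gene, had 149 and 112 TPM in WM-1119 libraries, against 85.6 and 89.8 TPM in DMSO libraries. Srgn had 778 ± 29.5 TPM in WM-1119 and 773 ± 103 TPM in DMSO, and Calr had 1239.9 ± 262 TPM in WM-1119 and 1225 ± 154 TPM in DMSO. The processing and storage list had 10 of 13 genes positive (median 0.11), and the list of MPO folding and haem synthesis 10 of 11 (median 0.22). All 3 tested genes of the list of other primary granule genes were positive (median 0.72), as were 71.9% of all genes. Cd63, a granule membrane protein gene, had 957 ± 219 TPM in WM-1119 and 874 ± 163 TPM in DMSO. All 6 tested inhibitor genes were positive (median 0.38), with Serpinb1a, an elastase inhibitor gene, at 388 ± 71.6 TPM in WM-1119 and 325 ± 51.6 TPM in DMSO. Pglyrp1, Hp, Cebpe and Spi1 were named after their values were seen.

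Markers of other cells varied between the ER-Hoxa9 libraries too. Eosinophil markers, led by Prg3, summed to 502 and 149 TPM in WM-1119 and to 231 and 209 TPM in DMSO, and mast cell and basophil markers, led by Cpa3, to 687 and 245 TPM in WM-1119 and to 727 and 458 TPM in DMSO. Erythroid and megakaryocyte markers, led by Gp9, summed to 61.6 and 54.2 TPM in WM-1119 and to 25.0 and 48.4 TPM in DMSO, and lymphoid markers, led by Cd79b, to 69.2 and 64.4 TPM in WM-1119 and to 29.3 and 48.1 TPM in DMSO. Both of the last lists were lowest in DMSO replicate 1, the library with the lowest Mpo, Prtn3 and Elane, and their part in those values was not tested. At an unadjusted p under 0.05, 11.6% of all genes were higher. These lists held 1 of 5 eosinophil, 1 of 4 mast cell or basophil and 1 of 6 erythroid or megakaryocyte markers. They also held 2 of 4 lymphoid and 5 of 10 progenitor markers, and all of these were higher. The stromal list, almost all Vim, summed to 245 and 364 TPM in WM-1119 and to 166 and 276 TPM in DMSO, with collagen genes under 1 TPM. Of 10 progenitor markers 9 had a positive difference (median 0.57), as did 71.9% of all tested genes. Cd34 was at 919 ± 34.6 TPM in WM-1119 and 754 ± 116 TPM in DMSO.

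Genes near the members on the chromosome were also counted. Around PRSS57, AZU1, PRTN3 and ELANE, 13 further genes were tested in MOLM-13, of which 9 had a positive and 4 a negative difference (median 0.10). In ER-Hoxa9 14 were tested, of which 11 were positive (median 0.19). Of all tested genes, 61.5% were positive in MOLM-13 and 71.9% in ER-Hoxa9. PLPPR3, which lies 3119 bases from AZU1, had 218 ± 36.6 TPM in WM-1119 and 264 ± 48.4 TPM in DMSO of MOLM-13. Around LYZ, MPO and the ribonuclease genes the MOLM-13 medians were 0.06, 0.01 and 0.10 over 8, 8 and 5 genes. In ER-Hoxa9 they were 0.16, 0.24 and 0.11 over 8, 5 and 3 genes. Around CTSG, 0 of 4 genes were tested in MOLM-13, all of them under 1 TPM, and in ER-Hoxa9 1 gene was, Mcpt8, at 36.6 ± 1.73 TPM in WM-1119 and 37.2 ± 5.61 TPM in DMSO. RNASE6, a relative of the ribonuclease members, had 54.4 ± 0.55 TPM in WM-1119 and 43.3 ± 7.45 TPM in DMSO of MOLM-13. With limma 0 neighbours were called in either line, without or with the block. At an unadjusted p under 0.05 there were 0 in MOLM-13 without the block. With it 1 of 13 was higher and 2 of 13 (PLPPR3 and CDC34) were lower around the protease cluster, and 2 of 5 around the ribonuclease genes, 1 of 8 around MPO and 1 of 8 around LYZ were higher, against 13.2% of all genes higher and 4.91% lower. In ER-Hoxa9 without a block, 4 of 14 around the protease cluster and 1 of 5 around MPO were higher, against 11.6% of all genes.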

How the data were processed

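For each line, the authors deposited TPM by gene symbol. The submitters' processing notes name Salmon and the builds hg38 and mm10, without a Salmon version or an annotation. Mouse columns are headed LysHoxa9, a name absent from the labels. They were read as ER-Hoxa9, since the series holds no other mouse line.

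Members, lists, motifs and tests were chosen with earlier results of these data known. Genes averaging 1 TPM or more were tested per line in limma 3.58.1 under R 4.3.3, on log2(TPM + 1), with moderated variances that follow the mean level, two-sided, with Benjamini-Hochberg adjustment over all tested genes. The line difference was the interaction term over all 10 libraries. The fits were also run on simulated data whose noise was independent between libraries. Such data lack the correlation of same-numbered libraries, so they do not test how the fits behave under it. Tables and figures were made with pandas 2.3.3 and matplotlib 3.10.9 in Python 3.11.15. TPM keep no depth, so no counting interval is given, and an exact 0 was read as listed at 0.

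All members with a row were named, with the most abundant gene of each of 19 lists and the 3 genes most like the members. Other genes were named after their values were seen.

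Deviations from the group means were correlated between MOLM-13 libraries of the same number, at 0.52 (number 1), 0.44 (number 2) and 0.61 (number 3). Since each is above 0.1, the libraries were treated as paired, and values from the fit with the block are given beside those from the fit without it for each human member and for the counts over lists. Log2 differences are the same in both. What same-numbered libraries have in common is not stated. In ER-Hoxa9 the correlation was 0.21, and with 2 libraries per group it is necessarily the same for both numbers. That value was also above 0.1, but it cannot show agreement between pairs, and the numbers were not taken to pair the samples. Alternatives were another pseudocount, other filters on low values, median-of-ratios scaling, removal of the members or of microRNA symbols from the total, no trend, the replicate block, and leaving out each library. Combining the block with median-of-ratios scaling was chosen after seeing the data. Within each line 0 pairs of libraries held identical values. GENCODE release 29 gave the human coordinates.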

Additional observations from a re-analysis of the deposited data

How the results depend on the processing

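Members called were 0 in MOLM-13, in ER-Hoxa9 and in the line difference under every alternative run, with limma. The number of genes called in MOLM-13 was 1, and it was 0 without a filter on low values, 2 without the mean-variance trend, 0 to 6 when each library was left out, and 0 with the replicate block, alone, without the replicate 3 pair or with median-of-ratios scaling. In ER-Hoxa9 it was 4, and it was 0 with a pseudocount of 0.1, without a filter, with a mean of at least 5 TPM and when each library was left out, 2 without microRNA symbols and 16 without the trend. With the replicate block, a paired fit whose pairing was not established in ER-Hoxa9, it was 0 there, also with median-of-ratios scaling. In the line difference it was 2, and it was 40 without a filter, 3 with the replicate block, with median-of-ratios scaling or with both, 1 without microRNA symbols and 1 to 2 when each library was left out. The block changed no member's call in either line.

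Leaving out each library gave log2 differences of -0.01 to 0.17 for CTSG, -0.11 to 0.41 for ELANE, -0.20 to 0.90 for MPO and -0.07 to 0.50 for PRTN3 in MOLM-13, and -0.0022 to 0.36 for Ctsg in ER-Hoxa9. CTSG (-0.0063), MPO (-0.20) and PRTN3 (-0.066) turned negative without DMSO replicate 3, ELANE (-0.11) and PRTN3 (-0.02) without WM-1119 replicate 1, ELANE (-0.0092) without DMSO replicate 2, and Ctsg (-0.0022) without ER-Hoxa9 WM-1119 replicate 1. The cause was not tested. In those reduced fits a lone ER-Hoxa9 library is assumed to vary like the other group. The other 202 member values kept their direction and their side of the threshold.

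Median-of-ratios scaling moved the unadjusted calls of all ER-Hoxa9 genes to 732 higher and 410 lower, against 1322 and 128 without it, and those of MOLM-13 to 290 and 203, against 259 and 120. With the block they moved to 1098 and 1140 in MOLM-13, against 1645 and 611, and the ER-Hoxa9 blocked calls to 1147 and 799, against 1761 and 273. Depth behind each TPM is unknown, which limits what Elane, Prss57 and MPO can show at their low levels.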
